A study of Mus musculus with 58 samples.

Results

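Beta-catenin (Ctnnb1) and the protein complex that marks it for destruction were followed in the prefrontal cortex of young mice given lithium, fluoxetine or vehicle. The 7 genes were taken by symbol from the 18088 genes of the table: Ctnnb1 itself, the kinases Gsk3a, Gsk3b and Csnk1a1, the scaffolds Apc and Axin1, and Btrc, which recruits the ubiquitin ligase. All 7 were in the table, and all 7 were among the 16606 genes tested.

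Beta-catenin works in 2 places in a cell, at the membrane, where it ties cadherins to the actin skeleton, and in the nucleus, where it joins TCF/LEF factors to switch on Wnt target genes. In the absence of a Wnt signal, Axin1 and Apc hold it beside casein kinase 1 (Csnk1a1) and glycogen synthase kinase 3 (Gsk3a, Gsk3b), these kinases phosphorylate it, and Btrc binds the phosphorylated protein so that it is degraded. Lithium inhibits glycogen synthase kinase 3, and this control acts on the protein, which RNA sequencing does not measure. In the cortex beta-catenin is also known for its part in the growth of the neural progenitor pool and at synaptic contacts.

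The kinases act on a short stretch near the amino end of beta-catenin, shown here because Btrc binds it once it is phosphorylated. In GRCm38 it lies at chr9:120950599-120950649 on the plus strand, in exon 3 of the transcript Ctnnb1-201 of GENCODE M21, and its 51 bases hold codons 31 to 47 of a protein of 781 residues. The capitals mark codons 33, 37, 41 and 45, which encode the serine and threonine residues phosphorylated by the complex, 45 by casein kinase 1 and the others by glycogen synthase kinase 3.
Ctnnb1 codons 31 to 47: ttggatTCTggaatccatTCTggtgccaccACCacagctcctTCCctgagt

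The series held 58 bulk RNA-seq libraries of C57BL/6J mice at postnatal day 25. The groups were lithium in HT (10 libraries), lithium in WT (8), fluoxetine in HT (10), fluoxetine in WT (10), vehicle in HT (10) and vehicle in WT (10), where HT is heterozygous for a Tbl1xr1 knock-in allele and WT is wild type. Each was split evenly by sex, into 5 females and 5 males, or 4 and 4 for lithium in WT. All pups, those on vehicle included, were dosed for 3 weeks, from day 3 to day 24, through maternal milk, so a difference between litters and an effect of a drug cannot be told apart, since the labels give neither dam nor litter. The labels do not name the altered residue of the knock-in allele. They also do not tell whether every library came from its own animal, so the p-values reflect how far libraries differ, which may be technical.

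The reads behind the values came to between 22.9 and 35.01 M per library. Tbl1xr1, a nuclear cofactor that binds beta-catenin, checked the labels: it had a lowest, median and highest normalised read count of 2275.5, 2523.6 and 2746.8 in HT and of 1817.3, 2068.0 and 2278.6 in WT, and 29 of 30 HT libraries lay above all 28 WT libraries. Markers of cortical neurons were present in every group, with median sums per genotype and drug between 137322 and 143744.7, and none was at 0. Some libraries also carried RNA of neighbouring tissue: the summed choroid plexus markers reached 25946.3 in 1 HT lithium library and 33609.2 in 1 WT vehicle library, against group medians of 252.9 to 337.7, and the summed olfactory bulb markers ran from 6987.3 to 39650.0 in HT lithium and from 7695.2 to 49904.4 in WT vehicle. In bulk tissue, fewer cells of a type and less RNA per cell cannot be told apart.

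Values below are normalised read counts, that is, reads divided by 1 size factor per library. Differences are on the scale of log2(value + 1) with their standard error from limma, and a gene is said to have risen or fallen when its p, adjusted over all 16606 genes by the Benjamini-Hochberg method, was under 0.05. Where libraries are counted as lower or higher, or as below or above a mean, the reference was set per library. It was the mean log2 value of the vehicle or fluoxetine group of the same genotype and sex.

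Ctnnb1 was lower in lithium-treated mice of both genotypes. In HT females it had 16786.9, 15169.8, 15802.2, 14996.6 and 14982.2 normalised reads under lithium, against 19696.5, 18244.1, 18165.9, 21543.6 and 16568.0 under vehicle. HT males had 14231.5, 15666.2, 14696.0, 15943.1 and 16738.4 under lithium, against 17289.5, 18988.1, 17749.4, 17867.5 and 19812.9 under vehicle. The male groups did not overlap, as for 0.921% of genes in that direction, and the female groups overlapped through vehicle female 5 (16568.0), which lay below lithium female 1 (16786.9). Over both sexes, 8 of 10 HT lithium libraries lay below all 10 HT vehicle libraries. The HT mean was 15501.3 ± 842.7 under lithium and 18592.5 ± 1449.5 under vehicle (SD, n = 10 each), and Ctnnb1 fell by 16.5%, a log2 difference of −0.26 ± 0.037 with a 95% interval of −0.334 to −0.187 (limma, adjusted p = 6.39e-05). It had the smallest p of all genes in that comparison, in which 0.385% of genes were called and 0.217% fell.

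Ctnnb1 was lower in WT mice on lithium too. WT females had 16336.0, 15219.4, 15579.3 and 17362.5 normalised reads of Ctnnb1 under lithium, against 17451.3, 17371.3, 18181.6, 18526.6 and 17515.7 under vehicle. In WT males the values were 15905.5, 14727.9, 16361.2 and 16073.0 under lithium, against 19491.4, 17426.8, 17529.7, 19297.0 and 19514.1 under vehicle. All 8 lithium libraries lay below all 10 vehicle libraries, although the closest pair, 17362.5 and 17371.3, were nearly equal. Over all genes, 0.012% were lower without overlap in WT, and 0.0181% in HT. The WT mean was 15945.6 ± 801.3 under lithium (SD, n = 8) and 18230.5 ± 910.3 under vehicle (SD, n = 10), and Ctnnb1 fell by 12.5%, a log2 difference of −0.19 ± 0.039 (95% interval −0.271 to −0.115, limma adjusted p = 0.0374). In that comparison 0.0301% of genes were called. The WT call lay near the threshold and was easily lost. In a fit to the WT lithium and WT vehicle libraries alone the adjusted p was 0.157 at the same log2 difference of −0.19. The call was lost in 12 of 18 fits that each left out 1 WT library (difference −0.21 to −0.18, largest adjusted p 0.127). The libraries whose removal ended the call were lithium females 1 and 2, lithium males 1, 2 and 4, vehicle females 1, 2, 4 and 5 and vehicle males 1, 4 and 5.

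**Figure D1:**
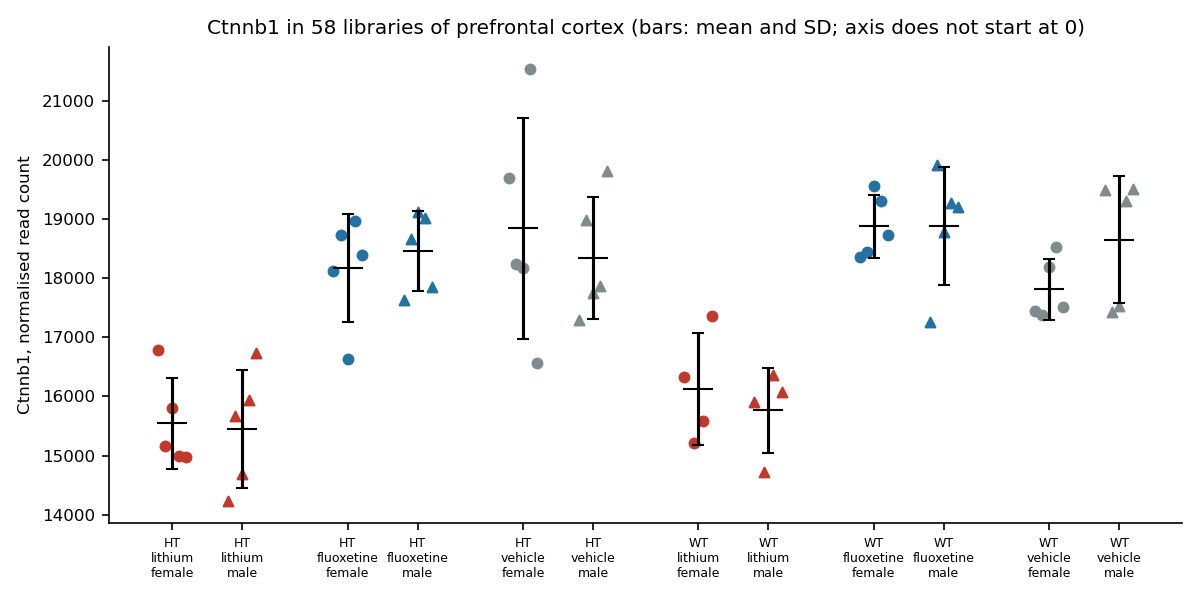
Normalised read count of Ctnnb1 (vertical axis, which does not start at 0) in each of the 58 libraries, by genotype, treatment and sex (circles female, triangles male), with group means and SDs as bars. The lithium libraries lie between 14231.5 and 17362.5, and all but 2 of the 20 vehicle libraries lie above 17362.5.

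Averaged over the genotypes, Ctnnb1 fell by 14.5% under lithium, a log2 difference of −0.23 ± 0.027 (95% interval −0.28 to −0.173, limma adjusted p = 4.49e-07), and it was below its vehicle mean in 18 of 18 lithium libraries. Its p was the smallest of the 16606, of which 2.67% were called, 1.3% as lower. Of the 443 calls 48.8% were lower, and 58.8% of 444 after upper-quartile rescaling of the libraries. The difference of the lithium effect between HT and WT was −0.067 ± 0.053 (95% interval −0.175 to 0.04, adjusted p = 0.998), so a larger fall in HT was not shown. No gene passed the threshold for that difference with limma or edgeR, 4 did with DESeq2, and 609 had an unadjusted p under 0.05 with limma. Averaged over the genotypes, the fall was −0.21 in females (adjusted p = 0.00919, or 0.0531 in a fit to females alone) and −0.24 in males (adjusted p = 0.000621), and the difference of these effects, female minus male, was 0.036 ± 0.053 (adjusted p = 1).

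Under fluoxetine, a serotonin uptake inhibitor, Ctnnb1 had a lowest, median and highest value of 16634.0, 18730.6 and 19915.5 (n = 20), against 16568.0, 18173.8 and 21543.6 under vehicle (n = 20). The ranges nearly coincided, and the log2 difference was 0.016 ± 0.026 (limma adjusted p = 0.812), with −0.019 in HT and 0.051 in WT. Lithium set against fluoxetine, a comparison that uses the same lithium libraries, gave −0.24 ± 0.027 (95% interval −0.296 to −0.189, limma adjusted p = 5.5e-08), again with the smallest p of all genes, of which 7.5% were called. In that comparison 18 of 18 lithium libraries lay below the fluoxetine mean. Neither genotype nor sex moved Ctnnb1 beyond the spread of the libraries: HT against WT, as the mean of the 3 treatments, gave −0.020 ± 0.022 (adjusted p = 0.71), and female against male −0.0019 ± 0.0215 (adjusted p = 0.991).

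Of 13 markers of microglia, endothelium and oligodendrocyte precursors, 1 fell under lithium as the mean of both genotypes, against 1.3% of all genes. The others did not pass. All 5 microglial markers had a log2 difference below 0 (median −0.10), of which Cx3cr1, the fractalkine receptor, fell to 1183.3 ± 142.9 under lithium (SD, n = 18), against 1380.8 ± 129.0 under vehicle (SD, n = 20), a log2 difference of −0.23 ± 0.053 (limma adjusted p = 0.00897). The summed microglial markers had a median of 6332.1 in HT lithium (range 5352.4 to 7130.7) and 6834.7 in HT vehicle (6043.8 to 7624.8), and of 5515.4 in WT lithium (5242.1 to 6755.4) and 6282.9 in WT vehicle (5355.3 to 7061.7). All 5 endothelial markers (median −0.08) and all 3 precursor markers (median −0.13) were also below 0, none of them past the threshold. With the mean of each list as a covariate, Ctnnb1 under lithium was at −0.22 for microglia, −0.25 for endothelium and −0.23 for precursors. The limma adjusted p were 2.56e-06, 2.64e-08 and 4.41e-07. Within groups, r of Ctnnb1 with these markers was 0.069, −0.324 and −0.118. It was −0.369 with the cortical neuron and −0.335 with the oligodendrocyte markers, which were not used as covariates. The part of cell content in the fall was not tested further.

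The scaffold Apc, a large protein that binds beta-catenin and Axin1 and also the ends of microtubules, was lower under lithium as well. HT females had 26699.9, 23885.8, 32376.3, 31444.9 and 33235.5 normalised reads under lithium, against 32170.3, 32371.3, 33573.7, 32616.0 and 35832.9 under vehicle. For HT males the values were 27404.5, 27720.3, 28508.4, 30913.8 and 28847.9 under lithium, against 34563.9, 33969.7, 35711.4, 31692.9 and 31734.5 under vehicle. The male groups did not overlap, as for 0.921% of genes in that direction, whereas lithium females 3 and 5 lay within the vehicle range.

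In WT females Apc had 25582.3, 32095.8, 28566.1 and 33520.8 normalised reads under lithium, against 32427.1, 35075.3, 29484.9, 35899.6 and 32499.8 under vehicle. WT males had 25614.2, 30013.5, 29689.8 and 29668.4 under lithium, against 37674.6, 30530.4, 34765.9, 29178.1 and 37020.8 under vehicle. Here the groups overlapped in both sexes, and 3 of 8 lithium libraries lay below all vehicle libraries. Averaged over the genotypes, Apc fell by 12.8%, a log2 difference of −0.20 ± 0.051 (95% interval −0.3 to −0.094, limma adjusted p = 0.0255), and was below the vehicle mean in 17 of 18 lithium libraries. Taken alone, neither genotype passed: −0.20 ± 0.07 in HT (adjusted p = 0.174) and −0.19 ± 0.074 in WT (adjusted p = 0.369).

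The Apc call depended on single libraries and on the marker levels. Without WT lithium female 1 its adjusted p was 0.0524, and without WT lithium male 1 it was 0.0543, each at −0.18. With the marker mean of microglia, endothelium or oligodendrocyte precursors as a covariate, the difference was −0.13, −0.13 or −0.12, with adjusted p of 0.106, 0.0901 and 0.0888. Within groups, Apc varied over the 58 libraries with r = 0.649 with the precursor markers, 0.572 with the endothelial and 0.55 with the microglial markers, given as a description. The part of cell content in the fall of Apc was not tested further.

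Under fluoxetine Apc had a wide spread, with a lowest, median and highest of 20891.9, 30291.1 and 43193.1, against 29178.1, 33094.8 and 37674.6 under vehicle (n = 20 each). HT females under fluoxetine included the lowest of all 58 libraries, 20891.9. All 5 HT females on fluoxetine, at 20891.9 to 30404.4, lay below all 5 HT females on vehicle, at 32170.3 to 35832.9, as did 0.403% of genes. The log2 difference was −0.18 ± 0.07 in HT (limma adjusted p = 0.412), with 9 of 10 libraries below the vehicle mean, and −0.05 ± 0.07 in WT (adjusted p = 0.821), with 6 of 10 below. The difference between these effects, HT minus WT, was −0.13 ± 0.0989 (adjusted p = 0.964). As the mean of both genotypes it was −0.11 ± 0.049 (adjusted p = 0.216), with 15 of 20 libraries below the vehicle mean, and lithium against fluoxetine gave −0.084 ± 0.051 (adjusted p = 0.332). Unlike for Ctnnb1, a difference between the drugs was not shown for Apc.

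Axin1, the scaffold that is held to be scarce in the complex, was the member nearest to a rise under lithium. It had a lowest, median and highest of 589.4, 693.8 and 748.5 under lithium (n = 18), of 526.1, 644.6 and 700.7 under fluoxetine (n = 20) and of 549.4, 634.9 and 725.3 under vehicle (n = 20). The ranges overlapped over most of their length. The difference of lithium from vehicle was 0.12 ± 0.038 (95% interval 0.044 to 0.196), with 15 of 18 lithium libraries above the vehicle mean, and it missed the threshold (limma adjusted p = 0.0678). It passed with library weights (adjusted p = 0.00887), with DESeq2 (adjusted p = 0.0415) and without any 1 of 6 libraries, namely HT lithium male 5, HT vehicle females 1 and 5, WT lithium female 4, WT lithium male 2 and WT vehicle male 2 (0.13 in each, adjusted p from 0.0347 to 0.0474). Within HT it was 0.13 (adjusted p = 0.281) and within WT 0.11 (adjusted p = 0.516).

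The genes of the kinases that lithium inhibits did not pass in any comparison. Gsk3a had a lowest, median and highest of 5007.1, 5852.2 and 6164.5 under lithium, of 5196.7, 6021.8 and 6459.3 under fluoxetine and of 5221.1, 5931.2 and 6357.1 under vehicle. For Gsk3b these were 5826.1, 6432.5 and 7014.1 under lithium, 5218.2, 6373.8 and 7354.0 under fluoxetine and 5411.7, 6753.4 and 7629.4 under vehicle. All ranges overlapped. Lithium against vehicle, as the mean of both genotypes, gave −0.042 ± 0.027 for Gsk3a (95% interval −0.097 to 0.014, limma adjusted p = 0.474). For Gsk3b it gave −0.049 ± 0.034 (95% interval −0.118 to 0.02, adjusted p = 0.511). Both intervals end short of the −0.23 of Ctnnb1. By genotype, Gsk3b differed by −0.099 in HT (95% interval −0.194 to −0.004, limma adjusted p = 0.384) and by 0.0012 in WT (adjusted p = 0.998). Its HT difference was −0.0016 in females and −0.20 in males (limma adjusted p = 0.294 in males).

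The balance of the 2 kinase genes was compared within libraries. The log2 ratio of Gsk3b to Gsk3a, not corrected for length, averaged 0.134 in HT lithium, 0.122 in HT fluoxetine and 0.165 in HT vehicle, and 0.186 in WT lithium, 0.052 in WT fluoxetine and 0.17 in WT vehicle, with SDs from 0.108 to 0.18. The ranges of all 6 groups overlapped. The lowest Gsk3b levels were those of WT fluoxetine, 6082.2 ± 583.4, against 6517.5 ± 462.9 in WT vehicle (SD, n = 10 each), a log2 difference of −0.10 (adjusted p = 0.325).

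Csnk1a1, whose product places the first phosphate on beta-catenin, had the least spread of the 7 within groups, a pooled coefficient of variation of 4.4%. Its lowest, median and highest values were 7981.0, 8376.0 and 9236.6 under lithium, 7470.9, 8319.5 and 9465.0 under fluoxetine and 7965.2, 8524.5 and 9484.7 under vehicle. Lithium against vehicle gave −0.0044 ± 0.021 (95% interval −0.047 to 0.038, adjusted p = 0.952), and fluoxetine against vehicle in WT −0.071 ± 0.029 (adjusted p = 0.25). Btrc, the F-box protein that reads the phosphates, ran from 2343.0 to 2898.9 (median 2572.0) under lithium, from 2255.2 to 2713.9 (median 2536.9) under fluoxetine and from 2217.7 to 2777.1 (median 2499.0) under vehicle. Its lithium difference was 0.032 ± 0.026 (95% interval −0.021 to 0.085, adjusted p = 0.591), and its groups overlapped under every drug.

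**Figure D2:**
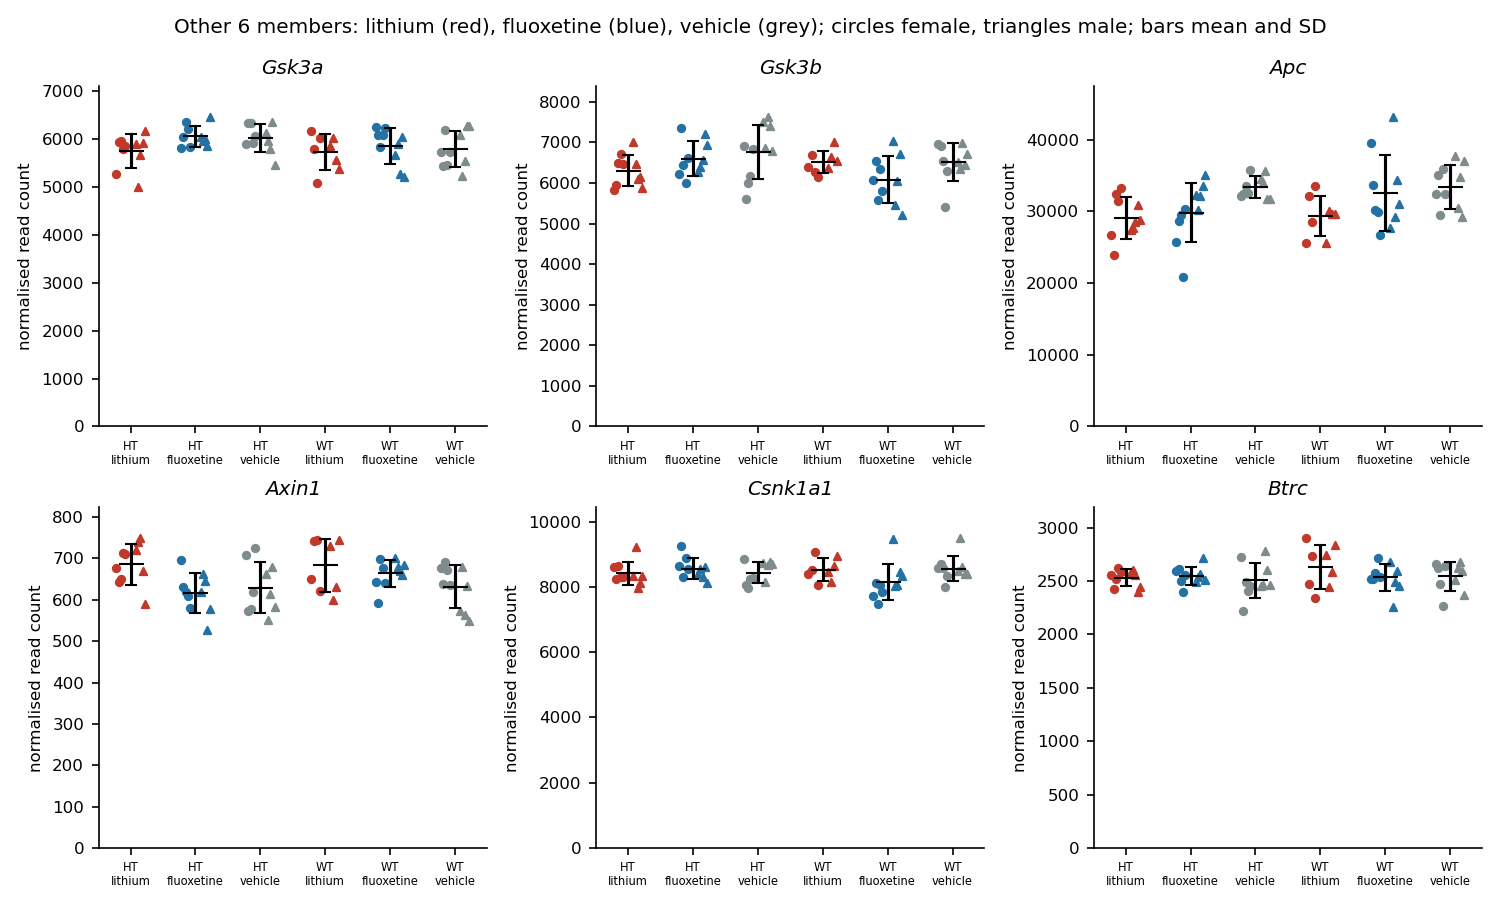
Normalised read count of Gsk3a, Gsk3b, Apc, Axin1, Csnk1a1 and Btrc in each of the 58 libraries, by genotype and treatment (circles female, triangles male), with means and SDs as bars. Lithium and vehicle libraries overlap in every panel, and Apc has the widest spread, from 20891.9 to 43193.1.

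Over the 7 genes, 1 was called under lithium in HT, 1 in WT and 2 as the mean of both genotypes. Of all genes, 0.385%, 0.0301% and 2.67% were called. The 7 were chosen with earlier results of these data known, so these counts are a description. The median log2 difference of the 7 under lithium was −0.04, against −7e-04 over all genes, with 2 members above 0 and 5 below. With fluoxetine no member was called in HT, in WT or in the mean, where 0.0%, 0.367% and 2.55% of genes were. In HT, where limma and edgeR called no gene, DESeq2 called 18, and 1526 had an unadjusted p under 0.05 with limma. For the difference of the fluoxetine effect between HT and WT, limma and edgeR again called no gene, DESeq2 called 1 gene, and 793 had an unadjusted p under 0.05.

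Genotype did not move a member past the threshold. No member was called for HT against WT under vehicle, fluoxetine or lithium or in the mean of the 3, where 0.0181%, 0.994%, 0.012% and 1.07% of genes were. Among the wider gaps was that of Gsk3b under fluoxetine, 6600.3 ± 436.0 in HT and 6082.2 ± 583.4 in WT (SD, n = 10 each), a log2 difference of 0.12 (adjusted p = 0.147). Without WT fluoxetine male 1, Gsk3b (0.15, adjusted p = 0.0418) and Csnk1a1 (0.09, adjusted p = 0.0338) passed in that comparison. The summed olfactory bulb markers had lower medians in HT than in WT, with overlapping ranges. These medians were 10083.7 and 16877.6 under vehicle, 11635.8 and 14523.5 under fluoxetine and 9519.7 and 16389.5 under lithium. With the mean of these markers as a covariate, no member was called in any HT against WT comparison. Female against male called no member either, against 0.114% of genes. A test for any difference among the 12 groups called Ctnnb1 alone of the 7 (moderated F test of limma, adjusted p = 3.92e-06), against 2.87% of genes, and the next was Apc (adjusted p = 0.137).

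**Figure D3:**
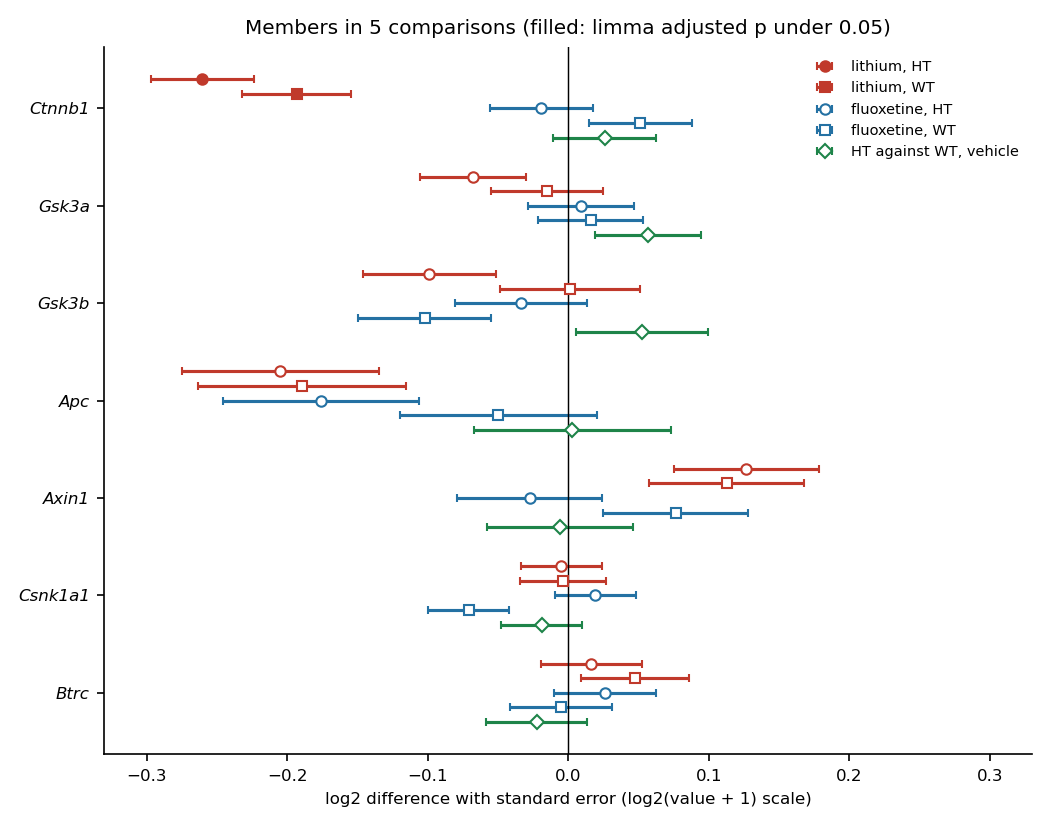
Log2 difference of each of the 7 genes, with its standard error as the bar, for lithium and fluoxetine against vehicle in each genotype and for HT against WT under vehicle. The filled points, which passed the threshold, are those of Ctnnb1 under lithium, at −0.26 in HT and −0.19 in WT.

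Per kilobase of annotated exon, beta-catenin was the most abundant of the 7 transcripts, at 3396.3 ± 311.4 normalised reads per kb (SD, n = 58), and stood above every other member in all libraries. Gsk3a (2024.7 ± 118.6) and Apc (1945.5 ± 239.2) came next and were not separable in order, with Gsk3a higher in 37 of 58. Csnk1a1 (803.4 ± 37.9) exceeded Gsk3b (657.5 ± 53.0) in 58 of 58 libraries. Axin1 (170.1 ± 14.7) and Btrc (150.6 ± 8.0) were lowest, with Axin1 higher in 53 of 58. That last order turned round when the longest transcript was used as the length, with Btrc at 539.4 and Axin1 at 172.4 normalised reads per kb.

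The spread within groups also set the members apart. Apc had the highest pooled coefficient of variation, 11%, followed by Axin1 with 7.9% and Gsk3b with 7.3%, whereas Gsk3a, Ctnnb1 and Btrc had 5.7%, 5.6% and 5.5%. Between groups, the highest group mean of Ctnnb1 (18885.2 in WT fluoxetine males) was 1.222 times the lowest (15455.0 in HT lithium males). For Apc this ratio was 1.252 and for Btrc 1.079, the ends of the range. Ctnnb1 thus moved between groups about as much as Apc at a smaller spread within them.

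Among libraries of the same group, the members did not vary as 1 block. Correlations were computed for 21 pairs over the 58 libraries after subtracting the 12 group means, with two-sided p from 100000 permutations within groups, adjusted over the pairs. Gsk3b and Btrc varied together (r = 0.548, rho = 0.506, permutation p = 0.00011, adjusted p = 0.00168 for r and 0.00304 for rho), and r was 0.468 without the 2 libraries farthest from the median of Gsk3b. Csnk1a1 and Btrc were as close (r = 0.542, rho = 0.508, permutation adjusted p = 0.00168 and 0.00304, and 0.519 without the 2 farthest). Gsk3b and Csnk1a1 followed (r = 0.472, rho = 0.452, adjusted p = 0.00896 and 0.0105, and 0.365 without the 2 farthest).

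Weaker relations passed for r but not for rho. Gsk3a and Csnk1a1 ran against each other (r = −0.443, rho = −0.356, permutation adjusted p = 0.0277 and 0.055). So did Ctnnb1 and Gsk3b (r = −0.36, rho = −0.351, adjusted p = 0.0483 and 0.055). Axin1 and Csnk1a1 had r = 0.361 and rho = 0.326 (adjusted p = 0.0462 and 0.0627). Without the 2 libraries farthest from the median, r of these 3 pairs was −0.315, −0.34 and 0.41. The other 15 of the 21 pairs did not pass for r.

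Some of these relations changed and others did not when the means of all 10 marker lists were also removed. Then r was 0.208 for Gsk3b and Btrc, −0.023 for Csnk1a1 and Btrc, 0.185 for Axin1 and Csnk1a1 and −0.131 for Ctnnb1 and Gsk3b. It was 0.458 for Gsk3b and Csnk1a1 and −0.423 for Gsk3a and Csnk1a1, close to the values without removal. Among pairs that had not passed, r became 0.451 for Gsk3b and Apc, against 0.127 without removal, and −0.32 for Gsk3a and Gsk3b, against 0.107. Gsk3b followed the cortical neuron markers (r = 0.714), Btrc ran against the microglial markers (r = −0.702), Csnk1a1 likewise (r = −0.641), and Gsk3a ran against the olfactory bulb markers (r = −0.689). The part of the markers in the pair relations was not tested further.

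**Figure D4:**
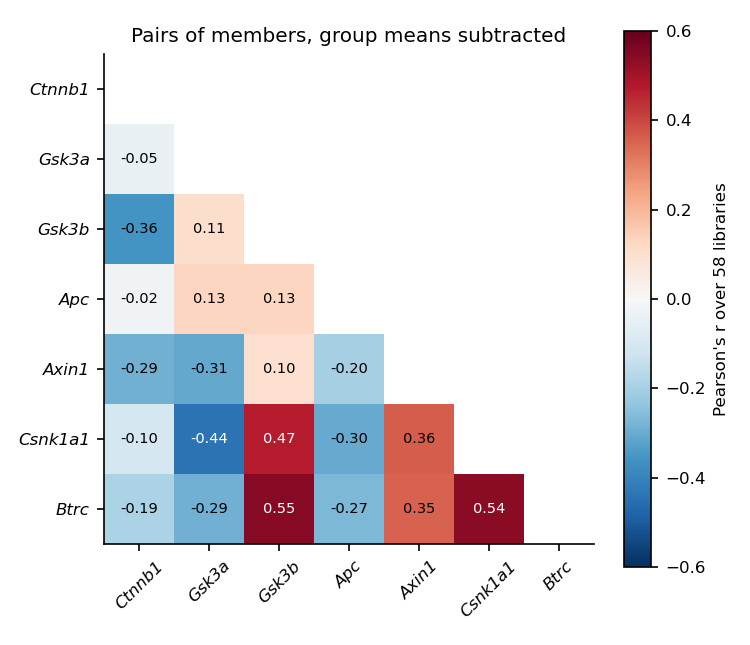
Pearson r between the 7 genes over the 58 libraries after subtracting the 12 group means. The positive values among Gsk3b, Csnk1a1 and Btrc, 0.472 to 0.548, are the highest of the 21 pairs.

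The genes whose levels were most like those of Ctnnb1 over the 58 libraries, group means subtracted, were Matn2 (r = 0.784), Mycl (0.761), Col6a1 (0.736), Npy2r (0.732) and Ccn3 (0.72), and the most opposed were Kcng4 (−0.722), Znfx1 (−0.722) and Myh7 (−0.721). They were the ends of 12764 genes with a mean of at least 50, of which 3.92% exceeded 0.5 in size. None of these 8 was called under lithium as the mean of both genotypes, against 2.67% of all genes. For Gsk3b the closest were Map1b (0.834), which encodes a microtubule protein of growing neurites, Appbp2 (0.832), Camsap2 (0.827), Bmpr2 (0.825) and Akap6 (0.819), and the most opposed Rps18 (−0.779), Rbck1 (−0.759) and Rps10 (−0.758), where 11.02% exceeded 0.5. Of those, only Map1b was called under lithium, against 2.67% of all genes, and it fell by 0.12 ± 0.033 on the log2 scale (limma adjusted p = 0.0472). That call lay near the threshold and was not checked in other fits.

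The remainder of the pathway was read from lists drawn up by function, with earlier results of these data known, so their counts are a description. Under lithium, as the mean of both genotypes, 2.67% of all genes were called and 1.3% fell. Of 28 further parts and regulators of the complex, 0 rose and 2 fell, with a median of −0.0017. Both encode subunits of protein phosphatase 2A, the enzyme that removes phosphates in the complex. Ppp2r5d, a regulatory subunit, had 2179.3 ± 127.8 under lithium (SD, n = 18) and 2333.7 ± 99.0 under vehicle (SD, n = 20), a log2 difference of −0.095 ± 0.021 (limma adjusted p = 0.00803), with 16 of 18 libraries lower. Ppp2r1a, the scaffold subunit, had 12964.0 ± 780.8 and 14064.1 ± 1027.9, a difference of −0.12 ± 0.033 (adjusted p = 0.0386), also with 16 of 18 lower. The Ppp2r5d call held in all 38 fits that left out 1 lithium or vehicle library, and that of Ppp2r1a was lost in 21.

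Close relatives of the members did not pass. Apc2, the neuronal paralog of Apc, differed by −0.052 (adjusted p = 0.281), Csnk1e by −0.065 (adjusted p = 0.115), and Fbxw11, the paralog of Btrc, by 0.023. Cul1, the backbone of the ubiquitin ligase, differed by −0.068 (adjusted p = 0.0534). Axin2, a feedback member of the complex and a standard readout of beta-catenin in the nucleus, had 765.9 ± 54.8 under lithium (SD, n = 18) and 761.3 ± 59.8 under vehicle (SD, n = 20), a log2 difference of 0.0064 ± 0.0365 (adjusted p = 0.96). A change of Axin2 was not shown where Ctnnb1 fell.

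Among 14 regulators of glycogen synthase kinase 3, 0 rose and 1 fell under lithium (1.3% of all genes fell), with a median of 0.0044. The 1 that fell was Frat1, whose product binds the kinase and keeps it from Axin: 162.5 ± 43.9 under lithium (SD, n = 18) and 200.5 ± 39.6 under vehicle (SD, n = 20), a log2 difference of −0.33 ± 0.096 (limma adjusted p = 0.0485), lower in 15 of 18 libraries. That call was lost in 26 of 38 fits without 1 library, with edgeR (adjusted p = 0.0788), with no minimum mean (0.0524), when lithium and vehicle libraries were fitted alone (0.0825) and with the choroid plexus covariate (0.051). Of 40 tested Wnt ligands, receptors and secreted modulators, 1 rose and 0 fell (2.67% of all genes were called), with a median of −0.0076. Wnt10a, a ligand at low level here, had 163.6 ± 26.5 under lithium and 131.6 ± 27.2 under vehicle, a difference of 0.33 ± 0.085 (adjusted p = 0.0249), higher in 15 of 18 libraries. With the microglial or precursor markers as a covariate its adjusted p was 0.0526 or 0.0574, and without WT lithium female 2 it was 0.0509.

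Among the 16 adhesion partners of beta-catenin, 0 rose and 3 fell under lithium as the mean of both genotypes, with a median of −0.04, against 2.67% of all genes called. Cdh2, N-cadherin, whose cytoplasmic tail binds beta-catenin, had 3216.1 ± 152.8 under lithium (SD, n = 18) and 3484.4 ± 273.7 under vehicle (SD, n = 20), a log2 difference of −0.11 ± 0.029 (limma adjusted p = 0.0284), lower in 15 of 18 libraries. Without WT lithium male 1 its adjusted p was 0.054. Cdh2 was also the 1 gene of these lists, outside the members, called in HT, where 0.385% of all genes were. It had 3150.6 ± 109.3 under lithium and 3569.6 ± 331.2 under vehicle (−0.18, limma adjusted p = 0.0263). That call was lost in 6 of 20 fits without 1 library (adjusted p from 0.0525 to 0.0664). These libraries were lithium female 5 or male 3 and vehicle females 1 or 4 or males 2 or 5. The HT call was checked in other fits too. It was also lost when the HT lithium and HT vehicle libraries were fitted alone (adjusted p = 0.11) and with the choroid plexus markers as a covariate (adjusted p = 0.0591).

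The alpha-catenins, which link beta-catenin to actin, were the other two. Ctnna1 had 1336.1 ± 133.7 under lithium and 1488.4 ± 138.9 under vehicle, a log2 difference of −0.16 ± 0.044 (limma adjusted p = 0.038). Ctnna2, the neuronal form, had 4423.8 ± 281.3 and 4781.3 ± 392.5, a difference of −0.11 ± 0.031 (adjusted p = 0.0378). Each was lower in 16 of 18 libraries. With the microglial, endothelial or precursor markers as a covariate, neither passed (adjusted p of 0.174, 0.145 and 0.139 for Ctnna1 and of 0.104, 0.0559 and 0.0708 for Ctnna2), and without 1 library the calls were lost in 18 of 38 fits for Ctnna1 and in 14 for Ctnna2. When lithium and vehicle libraries were fitted alone, the adjusted p was 0.0518 for Ctnna1 and 0.0799 for Ctnna2, and with the GC and length trend removed it was 0.129 for Ctnna2.

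In the nucleus, none of 21 tested partners of beta-catenin rose or fell under lithium (2.67% of all genes were called), with a median of −0.01. The TCF/LEF factors were among them, with Lef1 at −0.05 (adjusted p = 0.826) and Tcf7l2 at −0.067 (adjusted p = 0.845). In WT alone no gene of the 5 lists was called under lithium, where 0.0301% of all genes were.

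**Figure D5:**
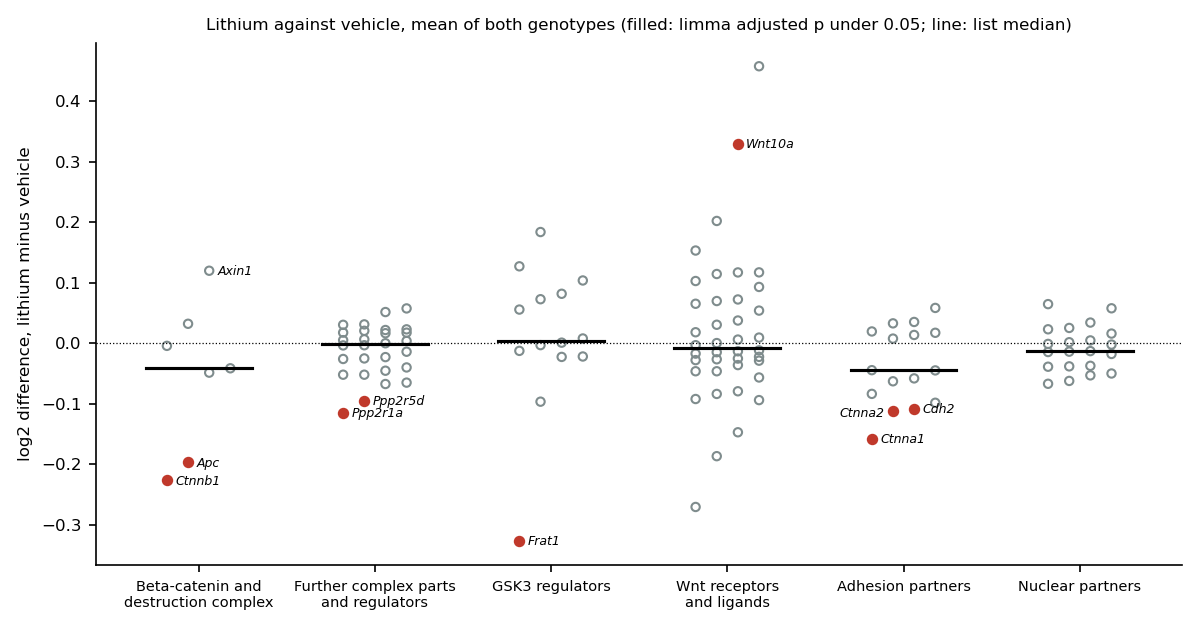
Log2 difference under lithium, as the mean of both genotypes, of each tested gene in the members and the 5 pathway lists, with called genes as filled points and list medians as lines. Ctnnb1, at −0.23, and the 3 fallen adhesion genes lie below 0, and list medians lie between −0.04 and 0.0044.

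Fluoxetine, as the mean of both genotypes, called 2 of the 119 genes tested in the 5 lists, against 2.55% of all genes. Both were lower and were named after their values were seen. Ppp2r5a, a subunit of protein phosphatase 2A, differed by −0.09 (limma adjusted p = 0.0267), and Cdh10, a cadherin, by −0.165 (adjusted p = 0.0191). Lithium against fluoxetine called 11 of the 119 genes tested in these lists, against 7.5% of all genes. Frat1 was among them, at 162.5 ± 43.9 under lithium (SD, n = 18) and 234.5 ± 40.4 under fluoxetine (SD, n = 20), a log2 difference of −0.56 ± 0.0959 (limma adjusted p = 0.000205), and so was Ppp2r5d, at 2179.3 ± 127.8 and 2411.3 ± 102.7, a difference of −0.14 ± 0.0213 (adjusted p = 2.89e-05). Vehicle lay between the drugs, at 200.5 ± 39.6 for Frat1 and 2333.7 ± 99.0 for Ppp2r5d (SD, n = 20). Both genes had already been called in lithium against vehicle. The same lithium libraries were used here, so this is no separate support for those calls. The other called genes are not named here.

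For genotype, the calls lay among the nuclear partners and the Wnt receptors and modulators. Under vehicle, Tbl1xr1 (0.29, adjusted p = 2.25e-07) and its paralog Tbl1x (0.18, adjusted p = 0.00107) were higher in HT, 2 of the 3 genes called in that comparison. The Tbl1x call under vehicle was lost when the HT and WT vehicle libraries were fitted alone (adjusted p = 0.0969) and among females only (adjusted p = 0.637). Tbl1xr1 (0.29) and Tbl1x (0.16) were also called as the mean of the 3 treatments, against 1.07% of all genes. Those calls held in all 21 alternatives and in all 58 fits without 1 library. As the mean of the 3 treatments, Frzb, a secreted Wnt antagonist, had 795.3 ± 191.4 in HT (SD, n = 30) and 1032.6 ± 235.2 in WT (SD, n = 28), a log2 difference of −0.38 ± 0.0876 (limma adjusted p = 0.0166). Fzd8, a Wnt receptor, had 124.6 ± 11.3 in HT and 139.5 ± 15.2 in WT, a difference of −0.15 ± 0.0356 (adjusted p = 0.0177). All 10 olfactory bulb markers were also below 0 in HT against WT (median −0.89). With their mean as a covariate, chosen after seeing the data, Frzb was at −0.24 (limma adjusted p = 0.0635) and Fzd8 at −0.13 (adjusted p = 0.0829). The part of olfactory bulb tissue in the differences of Frzb and Fzd8 was not tested.

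The members' positions in GRCm38 are chr9:120929216-120960507 on the plus strand for Ctnnb1, chr7:25228258-25237851 on the minus strand for Gsk3a, chr16:38089001-38246084 for Gsk3b, chr18:34220924-34322552 for Apc, chr17:26138688-26195811 for Axin1, chr18:61555274-61590061 for Csnk1a1 and chr19:45363734-45530013 for Btrc, the last 5 on the plus strand. Genes overlap 3 of them on the opposite strand, and the sources used here do not say whether strand was used in the counting. Ulk4, opposite Ctnnb1, averaged 132.4 normalised reads and differed by −0.095 ± 0.069 under lithium (adjusted p = 0.526). The gene opposite Gsk3a, 9130221H12Rik, averaged 142.2, and Gm10548, opposite Apc, averaged 35.4 (−0.30 ± 0.09, limma adjusted p = 0.0534). Each was a small share of the level of its partner.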

How the data were processed

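Polyadenylated RNA of prefrontal cortex was sequenced (TruSeq Stranded mRNA, per the labels' protocols). The deposited values are a linear signal: whole read counts scaled by the authors with a size factor for each library (0.7872 to 1.2293). Whole reads were recovered for 100% of values (tolerance 0.0001). Salmon 0.11.2, DESeq2 1.19.11, R 3.6.0 and the build GRCm38 are named in the submitters' processing notes. The sources used here do not say how multi-mapping reads were shared. GENCODE M21 named 18077 gene IDs. No library pair was identical.

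Differences came from limma 3.58.1 (R 4.3.3, mean-variance trend) on log2(value + 1), for genes with a mean of at least 10, in 1 fit of 12 group means (46 residual degrees of freedom). Fold changes of low genes are understated. The members and lists were chosen with earlier results of these data known, and list genes were named by call in lithium against vehicle or HT against WT, at most 5 per list by p. On the recovered reads, edgeR 4.0.16 (quasi-likelihood) called 452 genes under lithium and DESeq2 1.42.0 called 679, against 443. Covariates for leptomeninges, olfactory bulb, microglia, endothelium and oligodendrocyte precursors and removal of a GC and length trend were chosen after seeing the data. The limma fit was tested on simulated counts with known changes in lithium against vehicle, as the mean of both genotypes. The permutations and the edgeR, DESeq2 and covariate fits were not part of that test.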

Additional observations from a re-analysis of the deposited data

Results flagged for a closer look

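In 4 of 84 groups of 4 or 5 libraries (7 genes in 12 groups), 1 library stood apart from the others of its group, where chance flags about 1 in 20. For Gsk3a, HT lithium female 1 was lowest at 5264.0, with the others between 5791.9 and 5959.6. For Apc, WT lithium male 1 was lowest at 25614.2, with the others between 29668.4 and 30013.5, and the fall of Apc under lithium was no longer called without it (adjusted p = 0.0543). For Csnk1a1, HT vehicle male 2 was lowest at 8155.2 (others 8664.8 to 8771.5) and WT vehicle male 2 was highest at 9484.7 (others 8384.7 to 8622.5). Every member was also tested for a drug effect that differed between HT and WT, and for a lithium effect that differed between females and males, and none passed.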

How the results depend on the processing

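Of 1176 values of single genes under alternatives other than leaving out 1 library, 1074 kept their direction and side of the threshold. Another 54 lost the call, 3 gained a call and 45 changed sign. Most of the 1176 belong to results not called in the main fit, which had no call to lose. The 54 are thus not to be read as a share of 1176. The fall of Ctnnb1 as the mean of both genotypes ran from −0.25 to −0.21 over 21 alternatives and lost its call in 1, females only (−0.21, adjusted p = 0.0531). Without 1 library it ran from −0.24 to −0.21 and kept its call each time.

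The number of members called under lithium was 0 of 7 in HT and 0 in WT among females only and males only. It was also 0 in WT when only the groups compared were fitted. In each of these fits 0 of all genes were called, so 0 members had to follow. In the fit of all 12 groups Ctnnb1 passed in HT females (limma adjusted p = 0.0462), the 1 gene called there. As the mean of both genotypes the number of members was 0 among females only, where 0 genes were called. It was 1 among males only and with the microglia, endothelium or oligodendrocyte precursor covariate, in which Apc was no longer called. With the precursor covariate 1 member, Csnk1a1 (−0.09, adjusted p = 0.0425), was called under fluoxetine in WT, and with the microglia covariate 1, Csnk1a1 (0.088, adjusted p = 0.0306), in HT against WT under fluoxetine. Library weights gave 2 calls in lithium against fluoxetine (Axin1 added, adjusted p = 0.0415) and 4 for any difference among groups, where the microglia, endothelium and precursor covariates each gave 2. Leaving out 1 library gave 1 to 1 members called under lithium in HT, 0 to 1 in WT and 1 to 3 in the mean, 0 to 2 for HT against WT under fluoxetine, 1 to 2 for lithium against fluoxetine, 1 to 1 for any difference, and 0 to 0 elsewhere. The cause of these changes was not tested.

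The signs that turned were those of small differences. For lithium in HT, Csnk1a1 became 0.0251 (females only), 0.0013 (striatum covariate) and 0.004 (choroid plexus), and Btrc −0.0161 (males only), −0.0364 (microglia), −0.0164 (endothelium) and −0.0145 (precursors). For lithium in WT, Gsk3a became 0.0108 (females), 0.009 (microglia), 0.0049 (endothelium) and 0.0076 (precursors). Gsk3b in WT became −0.0149 (upper-quartile rescaling), −3e-04 (median centring), −0.0085 (library weights), −0.0051 (females), −0.0043 (replicate block), −0.0091 (choroid plexus), −0.0214 (leptomeninges), −0.0136 (microglia), −0.0157 (endothelium), −0.0023 (precursors), −0.0023 (edgeR) and −0.0022 (DESeq2). Csnk1a1 in WT became 0.0021 (weights), 0.0131 (females), 0.0019 (leptomeninges) and 0.0012 (GC and length trend removed). As the mean of both genotypes under lithium, Csnk1a1 became 0.0191 (females) and Btrc −0.0115 (microglia).

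Under fluoxetine Ctnnb1 became −0.0028 (endothelium), Gsk3a −0.0156 (males) and −0.0232 (GC and length), Axin1 −0.0277 (females) and −0.0044 (precursors), and Btrc −0.0134 (males), −0.01 (microglia), −0.0185 (endothelium) and −0.0182 (precursors). For HT against WT, Csnk1a1 became −0.0155 (males) and Btrc 0.0154 (microglia). For lithium against fluoxetine, Apc became 0.0186 (females), Gsk3b −0.0059, Csnk1a1 −5e-04 and Btrc −0.0069 (GC and length), and Btrc −0.0015 (microglia).

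Counts over all genes depended on the setting. The 443 genes called under lithium became 1058 with library weights, 764 with the olfactory bulb covariate, 866 with the endothelium covariate and 679 with DESeq2, and 0 and 8 among females and males only. In HT 64 became 166 with DESeq2, and in WT 5 became 38. As a whole, same-numbered libraries did not deviate together (median r 0.002 over 309 pairs, range −0.488 to 0.576, 86 over 0.1). Of 58 libraries, 15 were closest to their own number. The numbers are those of the sample titles, which for some WT lithium males differ from the library names. A pairing by number was not shown, and a pairing of part of the libraries was not tested. With replicate number as a block the members called stayed at 2 under lithium, with Ctnnb1 at −0.23 (adjusted p = 6.61e-07), and of the list genes named under lithium Ctnna2 lost its call (adjusted p = 0.0505). No F test was run with DESeq2, and the comparison of sexes had no single-sex value. Depth was not limiting for the members, whose lowest value was 526.1.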
